A study of Caenorhabditis elegans with 2 samples.

Results

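The hsp-16 genes of Caenorhabditis elegans encode small heat shock proteins, and 6 of them stand as 3 head-to-head pairs on chromosome V. They were listed by gene name with earlier results of these data known. Each was examined for summits of NHR-48-GFP regions in its gene body or within 1 kb upstream. The 6 genes are hsp-16.2, hsp-16.41, hsp-16.1, hsp-16.48, hsp-16.49 and hsp-16.11, of 19973 nuclear protein-coding genes in all. The genes were selected on the summits, signals and ranks of the regions listed at them, so the signals, ranks and counts of summits at these genes are a description and were not tested.

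Chromatin immunoprecipitation with sequencing (ChIP-seq) had been performed on hermaphrodite larvae of strain OP518, genotype unc-119(tm4063) III; wgIs518. The integrated transgene wgIs518 gives NHR-48, a nuclear hormone receptor, a GFP-FLAG tag at its C terminus, and an antibody against GFP was used for the precipitation. Animals were whole L4 larvae, the last larval stage, collected 48.5 h after release from starvation as L1 larvae. There was 1 group of 2 biological replicates, all with the transgene and the unc-119 mutation, and no untagged or heat-shocked animals were analysed here. Every region is an average over the tissues of whole animals, and the labels do not say in which tissues the transgene was active.

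Small heat shock proteins are chaperones built around an alpha-crystallin domain. They form oligomers that hold unfolding proteins and keep them from clumping together. The hsp-16 genes are nearly silent in unstressed worms and are strongly induced by heat, chiefly through heat shock factor 1 (HSF-1). HSF-1 binds heat shock elements, which are alternating inverted copies of the short unit GAA, read as GAA or as its reverse complement TTC. In each hsp-16 pair the genes point away from each other, so 1 stretch of DNA between them serves as the upstream region of both.

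The sequences between the genes are shown so that their likeness and their heat shock elements can be seen. They are the plus strand of the ce11 genome, 5′ to 3′, and capitals mark two-unit heat shock elements, written GAANNTTC or TTCNNGAA. The first is the whole stretch between the annotated ends of hsp-16.2 and hsp-16.41, chrV:1804958-1805177, 220 bases. The second is its counterpart between hsp-16.1 and hsp-16.48, chrV:9087821-9088028, 208 bases.
hsp-16.2/hsp-16.41: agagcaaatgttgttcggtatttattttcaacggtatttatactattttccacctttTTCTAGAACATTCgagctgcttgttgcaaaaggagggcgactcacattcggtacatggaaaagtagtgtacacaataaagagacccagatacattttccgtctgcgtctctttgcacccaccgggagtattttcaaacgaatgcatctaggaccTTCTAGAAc
hsp-16.1/hsp-16.48: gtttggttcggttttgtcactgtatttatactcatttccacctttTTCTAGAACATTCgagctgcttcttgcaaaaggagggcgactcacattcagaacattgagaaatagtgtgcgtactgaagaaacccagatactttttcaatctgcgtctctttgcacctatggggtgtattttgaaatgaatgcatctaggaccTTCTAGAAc

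Both stretches end inside the heat shock element near the gene on the right, since the first ends where the annotated hsp-16.41 gene begins and the second was cut to match it. The left end of the second corresponds to the annotated 5′ end of hsp-16.11, the twin of hsp-16.1. Aligned, they were identical at 181 of 220 positions (82.3%). The reverse complement of the second stretch lies letter for letter at chrV:9089869-9090076, between hsp-16.49 and hsp-16.11. For the whole sequence between the coding parts, the hsp-16.2/hsp-16.41 region was 346 bp and the other 2 regions were 348 bp each. The 348-bp regions were 100% identical to each other, and each was 80.4% identical to the hsp-16.2/hsp-16.41 region.

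The 6 genes are of 2 types. hsp-16.2 (WBGene00002016, chrV:1804334-1804957, minus strand), hsp-16.1 (WBGene00002015, chrV:9087293-9087782, minus strand) and hsp-16.11 (WBGene00002017, chrV:9090077-9090604, plus strand) encode proteins of 145 residues. hsp-16.41 (WBGene00002018, chrV:1805178-1805875, plus strand), hsp-16.48 (WBGene00002019, chrV:9088131-9088617, plus strand) and hsp-16.49 (WBGene00002020, chrV:9089280-9089766, minus strand) encode proteins of 143 residues. Each gene has 2 exons and 1 short intron of 46 to 58 bp, and each pair joins 1 gene of either type. hsp-16.2 has 2 annotated transcripts, and its exons, intron and coding part were taken from the first by name. The proteins of the 2 types were 47.1 to 49.0% identical to each other.

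Within a type, the copies were close or identical. The coding parts of hsp-16.1 and hsp-16.11 were identical at all 435 bases, and those of hsp-16.48 and hsp-16.49 at all 429 bases. The hsp-16.2 coding part differed from that of hsp-16.1 and hsp-16.11 at 41 bases (90.6% identical), and its protein at 10 residues. The hsp-16.41 coding part differed from that of hsp-16.48 and hsp-16.49 at 34 bases (92.1% identical), and its protein at 9 residues.

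Of the 6 hsp-16 genes, 2 had a summit of the list made by the irreproducible discovery rate (IDR) procedure. IDR compares how regions rank between lists, and 3312 of the 3338 nuclear IDR peaks had a region in both replicates. Across all nuclear protein-coding genes, 11.1% had an IDR summit in the same window. The 2 genes were hsp-16.2 and hsp-16.41, and both owed it to 1 region between them. The same 2 genes of 6 had a summit in the pooled list (background 52% of genes), in the replicate 1 list (51.9%) and in the replicate 2 list (46.2%). The pooled and replicate lists hold background along with peaks, so a summit in them alone is common. hsp-16.1, hsp-16.48, hsp-16.49 and hsp-16.11 had 0 summits in all 4 lists. By pair, 1 of the 3 hsp-16 pairs had exactly 1 IDR summit between its 5′ ends, against 12% of 1744 divergent pairs at most 1000 bp apart. The same 1 pair of 3 had exactly 1 summit there in the pooled list (30% of divergent pairs), in replicate 1 (27.8%) and in replicate 2 (27.8%).

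**Figure D1:**
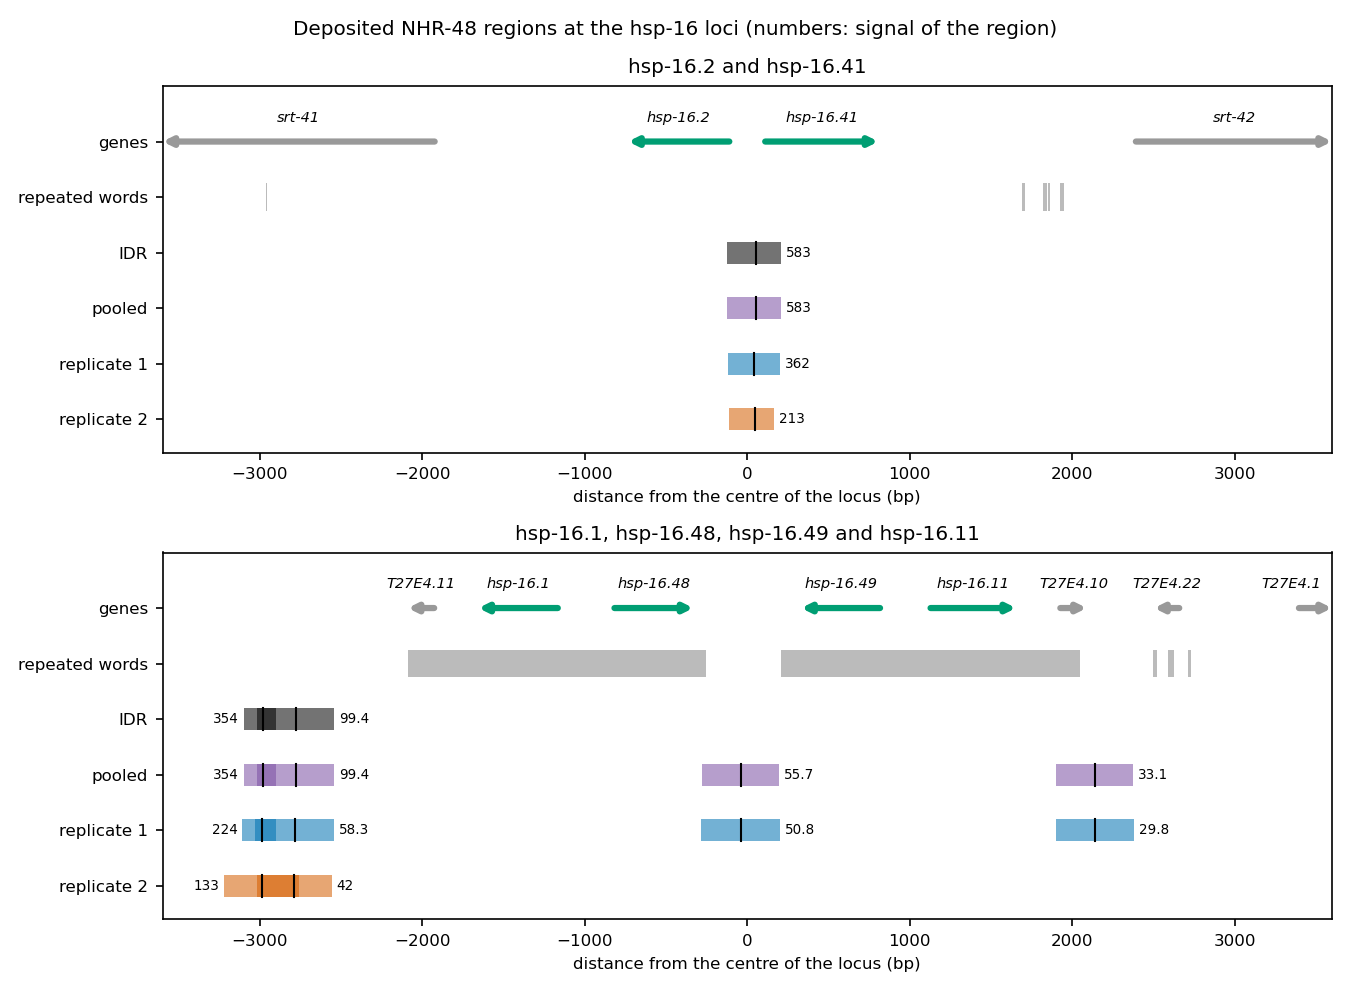
Distance from the centre of each locus in bp, with genes as arrows (hsp-16 green, others grey), stretches of repeated 50-base words in grey, and the regions of the 4 deposited lists as bars with the summit as a black line and the authors' signal beside them. All 4 lists have a region between hsp-16.2 and hsp-16.41, with signals of 582.6, 582.6, 361.7 and 212.9, and none has a summit over the repeated stretches that hold the other 4 genes.

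In the IDR list the shared region spanned chrV:1804941-1805275, 335 bp, with its summit at 1805122 and a signal of 582.6. The signal is the authors' value on the scale of their peak caller, and it can be compared only within a list. By signal the region ranked 173 of 3361 IDR peaks, 23 of which lie on mitochondrial DNA, and 150 of the 3338 nuclear ones. It ranked 32 of the 638 IDR peaks on chromosome V. Its signal was 3.76 times the median of 155.0 over nuclear IDR peaks. The pooled list holds the same region at rank 173 of 30000.

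Each replicate had the region on its own. In replicate 1 it had a signal of 361.7 and ranked 164 of 26941. In replicate 2 it had a signal of 212.9 and ranked 199 of 22704. The region therefore lay in the top 1% of both replicate lists, at 0.609% and 0.876% of the way down. The replicate ranks averaged 181.5 ± 24.7 (SD, n = 2). The ratio of the replicate 1 signal to the replicate 2 signal was 1.70, against a median of 1.38 over 3312 nuclear IDR peaks with quartiles of 1.10 and 1.74, so the ratio was inside the middle range of all peaks.

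**Figure D2:**
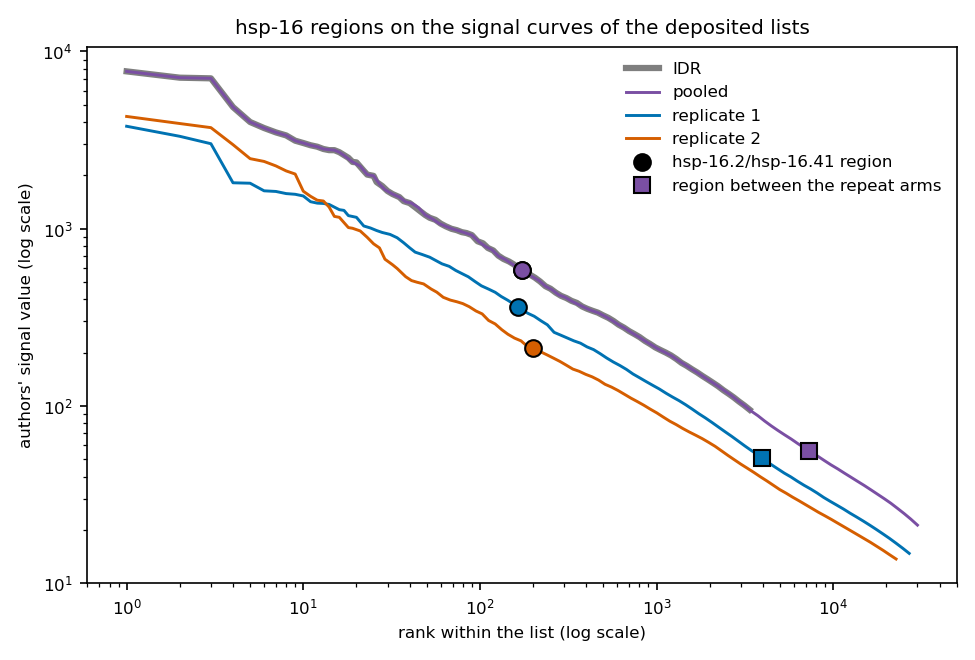
The authors' signal against rank, both on log scales, for the 4 deposited lists, with the hsp-16.2/hsp-16.41 region as circles and the region between the repeat arms as squares. The circles sit at ranks 164 to 199, and the squares at ranks 7341 (pooled) and 3966 (replicate 1); the IDR curve and its circle lie under those of the pooled list.

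The summits stood close together between the genes. The IDR and pooled summit was 165 bp upstream of the annotated 5′ end of hsp-16.2 and 56 bp upstream of that of hsp-16.41. The replicate 1 summit was 150 bp from hsp-16.2 and 71 bp from hsp-16.41. The replicate 2 summit was 156 bp from hsp-16.2 and 65 bp from hsp-16.41. All of them were nearer to hsp-16.41 by the annotated ends. Measured instead from the middle between the coding parts, they lay 24.5, 9.5 and 15.5 bp towards hsp-16.41 in the IDR, replicate 1 and replicate 2 lists. The replicate summits were 6 bp apart, against a median of 27 bp over nuclear IDR peaks, and 15.2% of peaks had a smaller distance.

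The interval covered the whole stretch between the genes and little of the genes themselves. It held 17 bases of the hsp-16.2 gene, none of them coding, and 98 bases of hsp-16.41, of which 5 were coding. Its width of 335 bp was less than the 476 bp that 79.0% of IDR peaks had, and 12.8% of IDR peaks were narrower. Because the signal belongs to the interval as a whole, it cannot be divided between hsp-16.2 and hsp-16.41.

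All 6 hsp-16 genes carry heat shock elements upstream, with or without a region. Between the coding parts each of the 3 pairs holds 2 three-unit elements, which are 3 alternating GAA and TTC units at the same spacing as in the two-unit form, and these contain 4 overlapping two-unit matches on either strand. In the printed stretches 3 two-unit matches are in capitals, because the last one runs on past the right end. A three-unit element lay from 250 bp upstream to 50 bp downstream of the 5′ end in 6 of 6 hsp-16 genes, against 1.97% of all genes. Either two-unit form was present at the same place in 32.5% of all genes.

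The NHR-48 summit fell between the 2 heat shock elements of its pair and on neither. The element nearer hsp-16.2 is at chrV:1805015-1805027, with its centre 101 bp from the IDR summit. The element nearer hsp-16.41 is at chrV:1805169-1805181, with its centre 53 bp from that summit. Both elements are inside the interval. The 100 bp around the summit held 0 two-unit and 0 three-unit elements, and over all nuclear IDR peaks 6.92% of such windows held a two-unit and 0.629% a three-unit element. Taken over whole intervals, 88 of 3338 nuclear IDR peaks (2.64%) held a three-unit element and 10 held 2 or more, of which the hsp-16 region was 1.

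**Figure D3:**
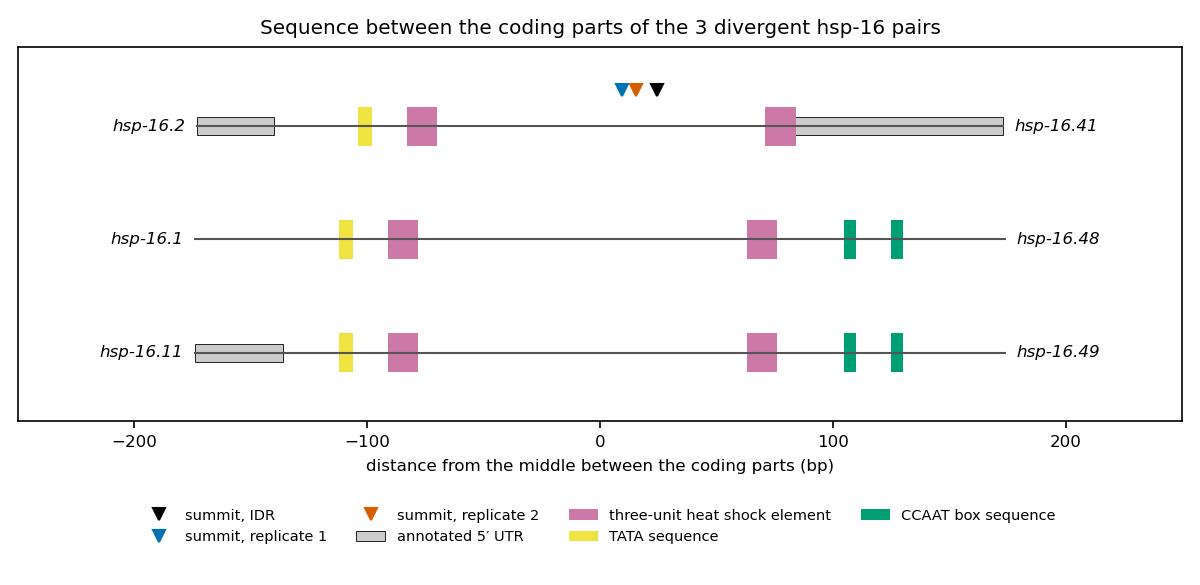
Position in bp from the middle between the coding parts of each pair, with the hsp-16.49/hsp-16.11 pair turned round to match the others; boxes mark three-unit heat shock elements, TATA and CCAAT sequences and annotated 5′ UTRs, and triangles mark summits. The 3 pairs hold 2 three-unit elements each at nearly the same places, and only the hsp-16.2/hsp-16.41 region has summits, all between the elements.

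Other short sequences were looked for on both strands in the 3 regions between coding parts. TATAAA, the core of a TATA box, was present 1 time in each region. CCAAT was present 2 times in each of the 2 identical regions and 0 times in the hsp-16.2/hsp-16.41 region. AGGTCA and AGTTCA, half-sites of nuclear receptors, were present 0 times in all 3 regions. AGTGCA, a half-site found for NHR-48's relative DAF-12, was present 1 time in the hsp-16.2/hsp-16.41 region, 128.5 bp from the IDR summit, and 0 times in the other 2 regions. TGATAA, which GATA factors bind, was present 0 times in all 3 regions. The E-box CACGTG and the repeat sequence GAGAGA were likewise present 0 times. The 100-bp windows around nuclear IDR summits held AGTGCA in 6.14% of cases, AGGTCA in 3.45% and AGTTCA in 5.27%. That window at the hsp-16.2/hsp-16.41 summit held 0 copies of each, since the AGTGCA match lay outside it. Over the 300-bp promoter windows of all genes, TATAAA was present in 37.9%, CCAAT in 45.5%, AGTGCA in 9.64%, AGGTCA in 8.27% and AGTTCA in 20.4%. The same windows held TGATAA in 30.2%, CACGTG in 5.82% and GAGAGA in 21.8%. A match to these letters is not a bound site.

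The 4 genes without a summit lie in an inverted repeat. The left arm, chrV:9086851-9088741, holds hsp-16.1 and hsp-16.48, and the right arm, chrV:9089156-9091046, holds hsp-16.49 and hsp-16.11. Each arm is 1891 bp long, and the arms differ at 1 base, which lies outside the protein-coding genes. A unique stretch of 414 bp separates the arms. Each arm also carries an snRNA gene, T27E4.11 on the left and T27E4.10 on the right, and the base that differs lies inside these genes.

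The sequence of each pair in the arms gives no means of telling the copies apart. Of the 50-base words between the coding parts, 299 of 299 at hsp-16.1/hsp-16.48 and 299 of 299 at hsp-16.49/hsp-16.11 occurred more than 1 time in the genome. At hsp-16.2/hsp-16.41 it was 0 of 297 words. The same 0% and 100% were found with words of 36 and 100 bases. The bodies of the 4 genes in the arms were repeated at 100% of their 50-base words, and those of hsp-16.2 and hsp-16.41 at 0%. Neither the read length nor the treatment of reads with several matches is stated by the labels or listings, although the deposited listings name tracks of uniquely placed reads. Whether NHR-48-GFP was absent from these 4 genes or reads from them were not kept cannot be told apart with these lists.

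The density of regions can be set beside their absence, but what it means for that absence was not tested. At the density of summits on chromosome V, the 3782 bp of both arms together would hold 0.115 IDR, 0.940 pooled, 0.839 replicate 1 and 0.760 replicate 2 summits. This is a flat average over the whole chromosome and differs in kind from the share of genes. By gene body and 1 kb upstream, 11.1% of all genes had an IDR, 52% a pooled, 51.9% a replicate 1 and 46.2% a replicate 2 summit. The arms held 0 in each list.

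The same measure was taken for all genes. In 257 genes, at least 90% of the 50-base words in the 1 kb upstream were repeated, and hsp-16.1 (95.7%), hsp-16.48 (100%), hsp-16.49 (100%) and hsp-16.11 (91.7%) were among them. Of the 257 genes, 0 had an IDR summit in the gene body or upstream window, against 11.3% of the other 19716 genes. In the pooled list it was 5 genes (1.95%), against 52.6% of the others. In replicate 1 it was 5 genes (1.95%), against 52.6%, and in replicate 2 it was 7 genes (2.72%), against 46.8%. The 257 genes had a median length of 1371 bp and the others of 2038 bp. With the 1 kb upstream alone, which is equally long for all genes, 0 of the 257 had a summit in any of the 4 lists, against 7.8% of the others in the IDR list and 32.9% in the pooled list.

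**Figure D4:**
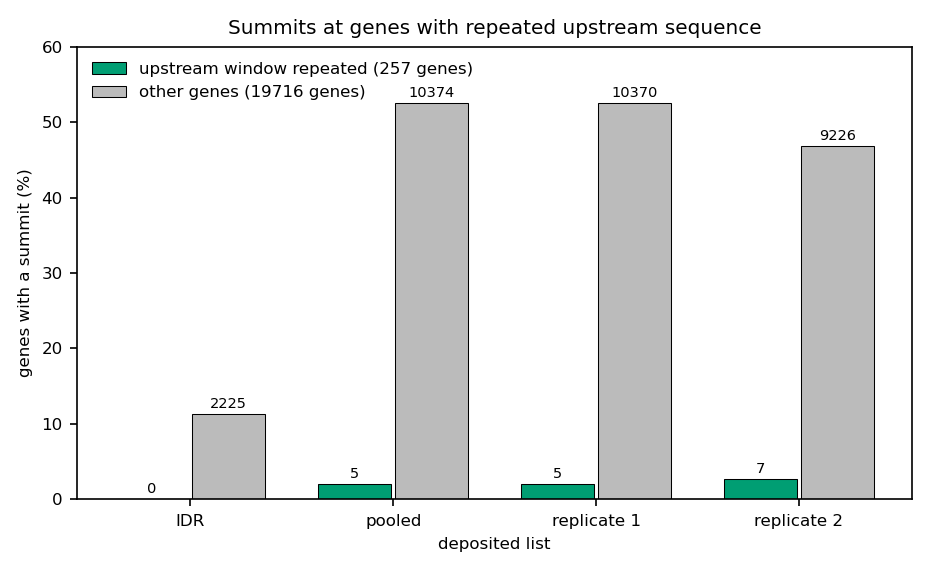
Percentage of genes with a summit in the gene body or 1 kb upstream, in each deposited list, for 257 genes with repeated upstream sequence (green) and 19716 other genes (grey), with the number of genes above each bar. The green bars stand at 0, 1.95, 1.95 and 2.72%, and the grey bars at 11.3, 52.6, 52.6 and 46.8%.

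The share of summits in repeated sequence can be set beside that of the genome. A repeated 50-base word lay at 50 of 3338 nuclear IDR summits, and at 1.02% of pooled, 1.06% of replicate 1 and 0.908% of replicate 2 summits, against 6.49% of the nuclear genome. These shares are a description of the lists, and the effect of repeats on the hsp-16 genes was not tested.

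A weaker region lay between the arms, beyond the 3′ ends of hsp-16.48 and hsp-16.49. In the pooled list it spanned chrV:9088671-9089146, with a signal of 55.7 at rank 7341 of 30000. In replicate 1 its signal was 50.8 at rank 3966 of 26941. Its deposited −log10 q value was 0.769 in the pooled list and 2.33 in replicate 1. It was in neither the replicate 2 list nor the IDR list. Of its pooled length, 405 bp were in the unique stretch and 71 bp in the arms. Its summit was 1127 bp upstream of hsp-16.1 and 1168 bp upstream of hsp-16.11, each beyond the partner gene and just outside the 1 kb used, whereas the shared region of hsp-16.2 and hsp-16.41 was well inside it. Among 1000 nuclear pooled regions within 500 ranks of it, 92.5% had an overlapping region in replicate 2, and 7.5% had one in replicate 1 only.

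Other regions had their summits just outside the repeat. IDR peaks with signals of 353.5 (rank 404) and 99.4 (rank 3184) had summits 881 and 681 bp to the left of the left arm. They were 1812 and 1612 bp downstream of the 5′ end of hsp-16.1 and belonged to no hsp-16 window. A pooled region of signal 33.1 (rank 16771, −log10 q 0.134) had its summit 42 bp to the right of the right arm and 197 bp of its length inside that arm. In replicate 1 its signal was 29.8 (rank 9181), with 200 bp inside the arm. The protein-coding neighbours srt-41 and srt-42, which flank hsp-16.2/hsp-16.41, and T27E4.7 and T27E4.1, which flank the repeat, had 0 IDR summits each. T27E4.7 is 10970 bp from hsp-16.1, and the IDR peaks to the left of the repeat lie in that gap. In the pooled, replicate 1 and replicate 2 lists, T27E4.7 had 3, 2 and 2 summits and T27E4.1 had 1, 0 and 1. In the same lists srt-41 had 0, 1 and 0, and srt-42 had 0 in each.

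Among divergent pairs, the hsp-16.2/hsp-16.41 region stood near the top. Of the 1744 pairs, 210 had exactly 1 IDR summit between their 5′ ends, and the hsp-16 pair ranked 11 among them by signal. The median IDR rank of these pairs was 1735. The 5′ ends of hsp-16.2 and hsp-16.41 are 220 bp apart, against a median of 476 bp for the 210 pairs, and 19 pairs are closer.

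The pairs next to it by IDR rank are described by their better known genes. Above it stood aars-1/rga-1 with a signal of 597.7 (rank 166), where aars-1 encodes an alanyl-tRNA synthetase, iff-2/F54C9.14 with 614.7 (rank 162), where iff-2 encodes a translation factor, and D1005.10/dhs-25 with 676.9 (rank 135), where dhs-25 encodes a dehydrogenase. Below it stood ctf-4/eef-1G with 562.0 (rank 183), where eef-1G encodes an elongation factor subunit, sec-61.B/trap-3 with 473.0 (rank 237), whose products act at the protein channel of the endoplasmic reticulum, and rps-19/hsr-9 with 472.7 (rank 238), where rps-19 encodes a ribosomal protein. The stretch between the 5′ ends held 3 two-unit heat shock elements in the hsp-16 pair, 1 each in sec-61.B/trap-3 and rps-19/hsr-9, and 0 in the other 4. The signals of the hsp-16 pair in the replicates, 361.7 and 212.9, were between those of aars-1/rga-1 (387.2 and 209.1) and ctf-4/eef-1G (309.1 and 243.1) in replicate 1 and just above aars-1/rga-1 in replicate 2.

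**Figure D5:**
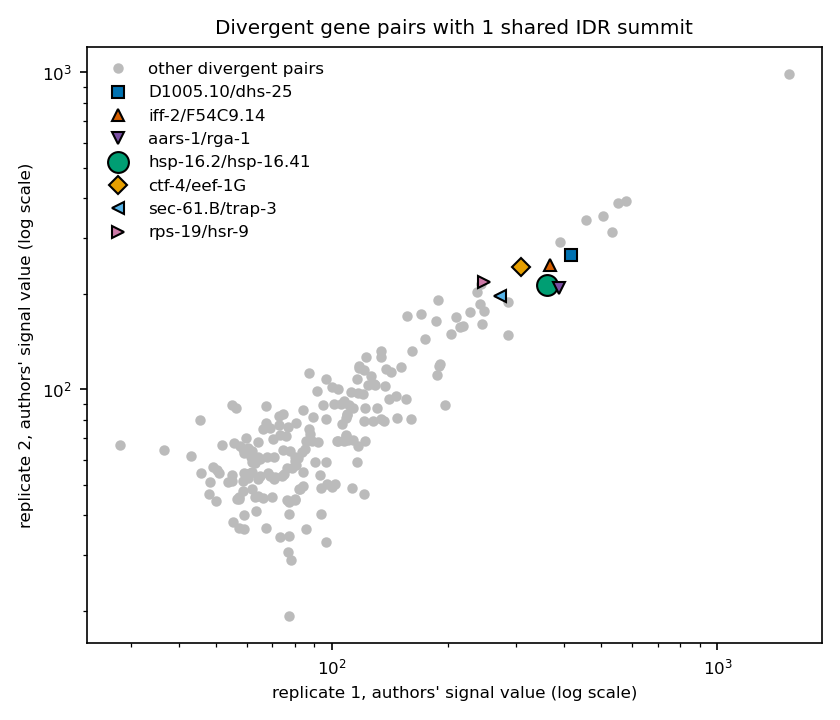
The authors' signal in replicate 2 against that in replicate 1, both on log scales, for divergent pairs with 1 IDR summit between their 5′ ends; the hsp-16.2/hsp-16.41 pair is the large green circle and the 3 pairs directly above it and the 3 directly below it by IDR rank have their own marks. The hsp-16 pair, at 361.7 and 212.9, stands in the upper part of the cloud.

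Other small heat shock genes had regions less strong than the one at hsp-16.2/hsp-16.41. Of 12 such genes, 2 had an IDR summit (16.7%, against 11.1% of all genes). hsp-12.3 had a signal of 206.4 (rank 1058), with its summit 688 bp into the gene, near its 3′ end. The replicate signals there were 147.8 (rank 766) and 55.1 (rank 2380). F08H9.3, named hsp-16.20 by RefSeq, had 2 summits, the stronger with a signal of 147.0 (rank 1835) and 165 bp into the gene. Its neighbour F08H9.4 had a summit in none of the 4 lists. Neither of the 2 strongest peaks held a heat shock element of either form. Of the 12 genes, 10 had a summit in the pooled list (52% of all genes), 10 in replicate 1 (51.9%) and 11 in replicate 2 (46.2%).

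Regulators of the heat shock response and large chaperones were the other list. Of 18 such genes matched by name, 12 had an IDR summit (66.7%, against 11.1% of all genes). Several of the 12 are long genes with large windows, among them daf-16 with 8 summits and skn-1 with 6. Both encode stress-response transcription factors, and their strongest summits were inside the gene, 19435 and 3062 bp from its 5′ end. skn-1 reached a signal of 666.2 (rank 142), above that of hsp-16.2/hsp-16.41. daf-16 reached 327.9 (rank 489). The transcription factor genes pqm-1, hlh-30 and atfs-1 reached 261.0, 205.3 and 224.9.

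The other genes of the list with an IDR summit encode chaperones and cochaperones. hsp-90, the cytosolic HSP90, had a signal of 564.9 (rank 180), close to that of the hsp-16 region, with its summit 858 bp into the gene. hsp-1, a constitutive HSP70, had a signal of 460.1 (rank 248), 370 bp upstream. dnj-13, a DNAJ cochaperone, had 381.5 (rank 353), 207 bp upstream. bag-1, an HSP70 cochaperone, had 261.7 (rank 706), 168 bp upstream, and hsp-110, an HSP70 relative, had 229.8 (rank 878), 252 bp upstream. The dnj-13 and hsp-110 summits also lay between divergent genes, 76.3% of the way from F54D5.9 to dnj-13 and 56.8% from hsp-110 to rpn-3. These signals cannot be divided between the genes of each pair either.

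F44E5.4 and F44E5.5, heat-inducible HSP70 genes, are arranged as the hsp-16 pairs are. They are divergent and shared 1 IDR peak with a signal of 369.0 (rank 371), with its summit 172 and 179 bp upstream of their 5′ ends. In the replicates its signal was 219.2 (rank 390) and 158.1 (rank 356). The interval of that peak held 10 three-unit heat shock elements, counted with overlaps, against 2 in the hsp-16.2/hsp-16.41 interval. The intervals of hsp-110 and bag-1 held 1 each, and those of hsp-90, hsp-1 and dnj-13 held 0.

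The genes of HSF-1 and of proteins known to restrain it are named here after their values were seen. hsf-1, which encodes the factor that induces the hsp-16 genes, hsb-1, which encodes a protein that binds and restrains HSF-1, and ddl-1 and ddl-2, whose products act with HSB-1, had 0 IDR summits each, and 11.1% of all genes had any. hsp-70 and jmjd-3.1, which encodes a histone demethylase, also had 0. hsf-1 had 1 summit in each of the pooled and replicate lists, the strongest at rank 7539 of the pooled list.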

How the data were processed

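The authors deposited narrowPeak lists for each replicate, for both pooled and after IDR. Per the deposited file listings, the replicate and pooled lists were called against 1 control file and the IDR list derives from them. The aligner, the peak caller and the IDR threshold are not given in the sources used here. Column 7 is the authors' signal, used to rank within a list. The deposited −log10 q value (3.75, 3.04 and 3.76 at the hsp-16 region in the IDR, replicate 1 and replicate 2 lists) was not used to rank. The weaker peak to the left of the repeat (ranks 404, 374 and 509 in these lists) had the same values. They therefore do not separate regions of different rank. Read counts are not in the lists, so depth is unknown.

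Only the ce11 lists were used, with WBcel235 sequence and Ensembl 115 genes. hsp-16.11 and hsp-16.49 were identified through RefSeq locus tags. A summit was the start plus the peak offset. Repeated words were exact matches on both strands. Alignments were global (Biopython 1.88; match 2, mismatch -3, gap open -5, gap extension -2). Python 3.11.15, numpy 2.4.6, scipy 1.17.1 and matplotlib 3.10.9 were used, and the counting steps were tested on simulated data. Named genes were the 6 members, the listed relatives with an IDR summit, the 3 divergent pairs above and below in rank and the neighbours; relatives named without a summit were added after their values were seen. The members and lists were chosen with earlier results of these data known, and no comparison between groups was possible with 1 group. Divergent pairs were counted where exactly 1 summit lay between the 5′ ends, a rule set after the counts were seen; besides the 210 such pairs in the IDR list, 5 had 2 or more summits. The alternatives were another upstream window, interval overlap, leaving out a replicate, other word lengths and other element patterns.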

Additional observations from a re-analysis of the deposited data

How the results depend on the processing

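No paired analysis was possible because there was 1 group of samples. The number of hsp-16 genes with an IDR summit stayed at 2, except with 2000 bp upstream, where the 99.4 peak to the left of the repeat, 1961 bp upstream of hsp-16.48, made it 3. With a pooled summit it was 2 of 6 genes, but 6 with 2000 bp upstream and 4 when any overlap of the interval counted, since the region between the arms reaches the windows of hsp-16.1 and hsp-16.11. The rank of the hsp-16.2/hsp-16.41 region was 173 in the IDR list, 150 among nuclear IDR peaks, 149 after overlapping nuclear peaks were merged, and 164 to 199 in either replicate alone. The shares of repeated words, 0%, 100% and 100% at the 3 pairs, were the same for 36, 50 and 100 bases. Heat shock elements between coding parts numbered 4 in each pair, and 2 in each of the 3 pairs with GAANNTTC alone, with TTCNNGAA alone or with the three-unit pattern, since the two-unit forms overlap in each three-unit element. The lowest listed signals were 21.3 (pooled), 14.7 (replicate 1) and 13.7 (replicate 2). With unknown depth, they mark where the lists end and need not be limits of detection. The pooled list holds exactly 30000 regions.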
